A study of Mus musculus with 4 samples.

Results

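The 10 genes described here encode proteins of the photoreceptor outer segment and of the matrix around it, namely *Prph2*, *Rom1*, *Rp1*, *Rp1l1*, *Cdhr1*, *Prom1*, *Abca4*, *Tulp1*, *Impg1* and *Impg2*. They were listed by symbol, and all 10 were found among the 14924 genes of the deposited table of normalized expression in mouse lens. The table holds 4 RNA-seq libraries, of which 2 are from S100A4-/- lenses (labelled S100A4 null) and 2 from wild type (WT) littermate lenses. All mice were on a C57BL/6J background and 1 month old, the S100A4-/- lenses came from a knockout line, and the labels name no treatment of the groups. Each library was made from polyA RNA of 6 to 12 pooled lenses, so a library is a pool of animals and the spread between libraries is a spread between pools. The libraries held 81602367 and 74108017 reads on genes in S100A4-/- and 70253985 and 68038158 in WT. The targeted gene matched the labels in every library, with *S100a4* at 14.6 and 18.2 in S100A4-/- and at 14420 and 14385 in WT lenses. The lens label also matched its markers, since *Cryaa*, the alpha A crystallin, was the most abundant of 12 lens fiber genes in all 4 libraries, with a log2 fold change of −0.07 in S100A4-/- over WT.

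The outer segment is the light-sensing part of rods and cones, a modified cilium packed with membrane discs that are made at its base and shed at its tip. Disc rims are shaped by tetraspanin proteins, the axoneme is held by microtubule-binding proteins, and the space around the segments is filled by a matrix of proteoglycans that binds retinoids and anchors the retina. Loss of several of these genes causes retinal degeneration. The lens has no outer segments, and its fiber cells are filled with crystallins.

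A value below is a normalized value, the reads of a gene scaled by 1 factor per library, so that 1 read was worth 0.856 and 1.01 in S100A4-/- and 1.04 and 1.09 in WT. Genes were compared with limma on log2(value + 1), a scale that makes the changes of weakly expressed genes look smaller. A gene passed the threshold with at least a 2-fold change and a Benjamini-Hochberg adjusted p of at most 0.05 over the 14780 genes that reached 10 in any library. All 10 genes were among those tested. In bulk lens RNA, more cells of a type and more RNA per cell cannot be told apart.

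Of the 10 genes, 9 rose past the threshold in S100A4-/- lenses, where 3.65% of all genes tested rose and 0.0744% fell (limma, Benjamini-Hochberg). The exception was *Abca4*, which was 1.56-fold higher. By adjusted p alone all 10 were higher, as were 5.62% of all genes. Their median log2 fold change was 2.07, or 4.21-fold, against −0.01 over all genes tested. Both S100A4-/- libraries lay above both WT libraries for all 10 genes, as they did for 23.7% of all genes tested. DESeq2 and edgeR, run on read counts recovered from the values, also called 9 of the 10, against 2.85% and 3.74% of all genes. After quantile normalization limma called 9, against 2.55% of all genes. With 1 common prior variance for all genes limma called 7, against 1.18% of all genes, and *Prom1* (Benjamini-Hochberg adjusted p = 0.0553) and *Impg2* (0.130) were then past 2-fold only. The adjusted p of *Abca4* was 0.0648 in that fit, so that it was no longer called by adjusted p alone. The 7 that were called had Benjamini-Hochberg adjusted p values of 0.0301 (*Rom1* and *Cdhr1*) to 0.0397 (*Impg1*) in the same limma fit. The much smaller adjusted p values given below for single genes come from limma with a prior variance that follows the mean level. Without the first S100A4-/- library 9 were called, against 1.14% of all genes, and without the second 8, against 1.42%.

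**Figure D1:**
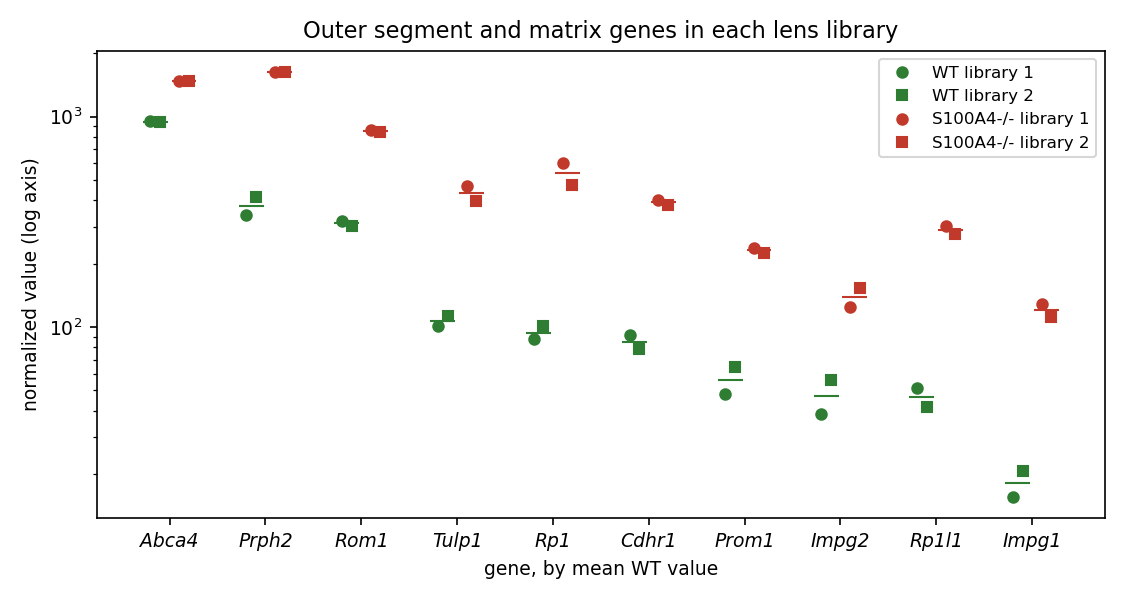
Normalized value (log axis) of each of the 10 genes in each library, ordered by mean WT value; circles and squares are the libraries 1 and 2 of WT (green) and S100A4-/- (red), and bars are group means. Every S100A4-/- point lies above the WT points of its gene. The gap is narrowest for *Abca4*, the highest of the 10 in WT by this value, not corrected for gene length, at 945.

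Promoter sequences from RefSeq (GRCm38.p6) were matched by symbol for 8 of the 10 genes, with 9 start sites, and the 250 bases before each RefSeq start were searched. They were searched because these genes moved together and the transcription factors CRX and NRL bind promoters of photoreceptor genes. The motifs were TAATCC, bound by CRX, and TGCTGA, part of the NRL response element, on both strands. TAATCC was found in 1 of 9 windows, that of *Abca4*, 58 bases before the start, and in 6.25% of all 32851 windows of the table and 5.36% of the 14153 windows of genes tested here. TGCTGA was found in none of the 9, in 16.1% of all windows and in 13.1% of those of genes tested. The shorter TAATC, which lies within TAATCC and was chosen after the sequences were seen, was found in 5 of 9 windows, in 19.8% of all windows and in 14% of those of genes tested. The 5 belong to *Abca4*, *Prph2*, *Impg1*, *Impg2* and 1 of the 2 starts of *Prom1*, and the match nearest the start lay 28 to 57 bases before it. The matching *Prom1* window (chromosome 5, 44094769 to 44095018) lies within the annotated gene. So does the *Impg1* match 42 bases before its RefSeq start. A match is only a match of letters. The windows of 4 genes are printed 5′ to 3′ on the strand of the gene, with matches to TAATC or TAATCC on either strand in capitals. They show the gene with the full motif, the tetraspanin pair with and without the shorter one, and a gene with neither.
Abca4 (chr3:122044210-122044459, plus strand): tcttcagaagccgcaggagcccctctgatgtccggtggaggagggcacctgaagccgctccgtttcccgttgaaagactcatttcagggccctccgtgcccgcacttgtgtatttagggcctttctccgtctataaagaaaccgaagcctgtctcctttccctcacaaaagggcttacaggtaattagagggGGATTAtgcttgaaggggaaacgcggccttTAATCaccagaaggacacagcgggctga
Prph2 (chr17:46910228-46910477, plus strand): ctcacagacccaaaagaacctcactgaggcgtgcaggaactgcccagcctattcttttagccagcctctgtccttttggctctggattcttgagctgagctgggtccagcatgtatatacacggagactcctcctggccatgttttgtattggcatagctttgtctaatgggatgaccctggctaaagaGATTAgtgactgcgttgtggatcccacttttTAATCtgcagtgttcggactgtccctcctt
Rom1 (chr19:8929357-8929606, minus strand): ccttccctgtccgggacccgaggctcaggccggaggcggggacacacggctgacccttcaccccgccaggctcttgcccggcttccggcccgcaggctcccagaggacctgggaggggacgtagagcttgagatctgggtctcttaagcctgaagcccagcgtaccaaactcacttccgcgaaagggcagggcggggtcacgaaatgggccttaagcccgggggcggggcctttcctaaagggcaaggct
Cdhr1 (chr14:37098348-37098597, minus strand): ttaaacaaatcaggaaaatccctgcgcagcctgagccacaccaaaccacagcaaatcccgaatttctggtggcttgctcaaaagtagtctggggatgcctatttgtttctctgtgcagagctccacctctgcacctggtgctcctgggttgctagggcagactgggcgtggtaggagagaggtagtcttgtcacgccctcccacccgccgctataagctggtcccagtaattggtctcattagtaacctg

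*Prph2* and *Rom1* encode the paired tetraspanins peripherin-2 and Rom1 of the disc rim. *Prph2* (ENSMUSG00000023978, GRCm38 chromosome 17, 46910459 to 46924933) had values of 1628 and 1625 in S100A4-/- and of 341 and 414 in WT lenses. The S100A4-/- libraries were nearly alike, and the lower of them was 3.93 times the higher WT library. The group means were 1626 ± 2.34 (SD, n = 2) and 378 ± 51.2 (SD, n = 2), a log2 fold change of 2.11 (SE 0.09 by limma, adjusted p = 4.92e-21 by Benjamini-Hochberg). *Rom1* (ENSMUSG00000071648, chromosome 19, 8927391 to 8929356) had values of 867 and 846 in S100A4-/- and of 321 and 302 in WT. Its groups were also clear of each other, although its rise was smaller, with a log2 fold change of 1.46 (SE 0.09 by limma, adjusted p = 5.05e-15 by Benjamini-Hochberg). The 95% interval of the log2 fold change was 1.27 to 1.65 for *Rom1* and 1.93 to 2.29 for *Prph2*, and the 2 intervals did not overlap. The value of *Rom1* divided by that of *Prph2* was 0.533 and 0.521 in S100A4-/- and 0.939 and 0.730 in WT libraries, so that the ratio was lower in both S100A4-/- libraries. The values are not corrected for gene length, so the ratio compares the groups and does not rank the 2 genes.

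*Rp1* and *Rp1l1* encode related doublecortin-domain proteins that bind the microtubules of the axoneme. *Rp1* (ENSMUSG00000025900, chromosome 1, 3999557 to 4409241) had values of 604 and 475 in S100A4-/- and of 87.7 and 101 in WT lenses. It had the widest spread of the 10 genes between the S100A4-/- libraries, at 1.27 times, and its groups were still far apart. Its log2 fold change was 2.50 (SE 0.14 by limma, adjusted p = 1.41e-16 by Benjamini-Hochberg). *Rp1l1* (ENSMUSG00000046049, chromosome 14, 63992506 to 64035025) had values of 301 and 278 in S100A4-/- and of 51.2 and 41.6 in WT, a log2 fold change of 2.62 (SE 0.19 by limma, adjusted p = 1.28e-13 by Benjamini-Hochberg). Its lower S100A4-/- library was 5.43 times its higher WT library, the largest such gap of the 10 genes. The value of *Rp1l1* over that of *Rp1*, not corrected for gene length, was 0.498 and 0.584 in S100A4-/- and 0.583 and 0.413 in WT libraries. These ranges overlapped.

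*Cdhr1* encodes a photoreceptor cadherin at the edge of newly forming discs, and *Prom1* encodes prominin-1, a protein of membrane protrusions found in the same place. *Cdhr1* (ENSMUSG00000021803, chromosome 14, 37077857 to 37098347) had values of 403 and 381 in S100A4-/- and of 91.9 and 78.8 in WT lenses. The groups did not overlap, and the log2 fold change was 2.19 (SE 0.15 by limma, adjusted p = 3.63e-14 by Benjamini-Hochberg). *Prom1* (ENSMUSG00000029086, chromosome 5, 43993620 to 44102032) had values of 238 and 225 in S100A4-/- and of 48.0 and 64.6 in WT. The WT libraries differed by 1.34 times, which was small beside the log2 fold change of 2.04 (SE 0.20 by limma, adjusted p = 2.72e-10 by Benjamini-Hochberg). Of its exon bases, 424 are shared with *Gm16401*, annotated on the other strand. The library kit kept strand, but whether reads were counted by strand is not given in the sources used here, so reads of the pair may not be told apart.

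*Tulp1*, a tubby-like protein needed for transport of proteins from the inner to the outer segment, had values of 468 and 395 in S100A4-/- and of 101 and 113 in WT lenses (ENSMUSG00000037446, chromosome 17, 28351515 to 28365222). The groups were apart by more than either spread, and the log2 fold change was 2.00 (SE 0.14 by limma, adjusted p = 8.29e-14 by Benjamini-Hochberg). *Abca4* encodes the transporter of disc rims that clears retinaldehyde from the discs (ENSMUSG00000028125, chromosome 3, 122044443 to 122180123). Its values were 1474 and 1478 in S100A4-/- and 948 and 943 in WT. Replicates of *Abca4* agreed to within 1.01 times in both groups, so the groups were separate although the change was small. Its log2 fold change was 0.64 (SE 0.07 by limma, adjusted p = 5.62e-09 by Benjamini-Hochberg), below the 2-fold threshold, and it was called by none of the 3 tools. Its 95% interval of 0.50 to 0.78 lay below those of the 9 other genes, the lowest of which began at 1.08 (*Impg2*).

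The differences in level ranked the genes otherwise. The mean normalized value was higher in S100A4-/- by 530.3 for *Abca4*, by 546 for *Rom1* and by 1249 for *Prph2*, and by 91.9 (*Impg2*) to 445 (*Rp1*) for the other 7 genes. In WT lenses *Abca4* was the highest of the 10 by normalized value, at 945 ± 3.81 (SD, n = 2) against 18.2 (*Impg1*) to 378 (*Prph2*) for the other 9. It made up 46.4% and 44.2% of the summed value of the 10 genes in the WT libraries and 23.6% and 24.8% in the S100A4-/- libraries. The share of *Prph2* was 16.7% and 19.4% in WT and 26.1% and 27.2% in S100A4-/-. The value of *Abca4* was 2.78 and 2.28 times that of *Prph2* in the WT libraries and 0.905 and 0.910 times in the S100A4-/- libraries. These values, differences and shares are not corrected for gene length. The annotated exons cover 12022 bases in *Abca4* and 3002 in *Prph2*. Per kilobase of exon *Abca4* was lower than *Prph2* in both groups, at 78.6 against 126 in WT and 123 against 542 in S100A4-/-.

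**Figure D2:**
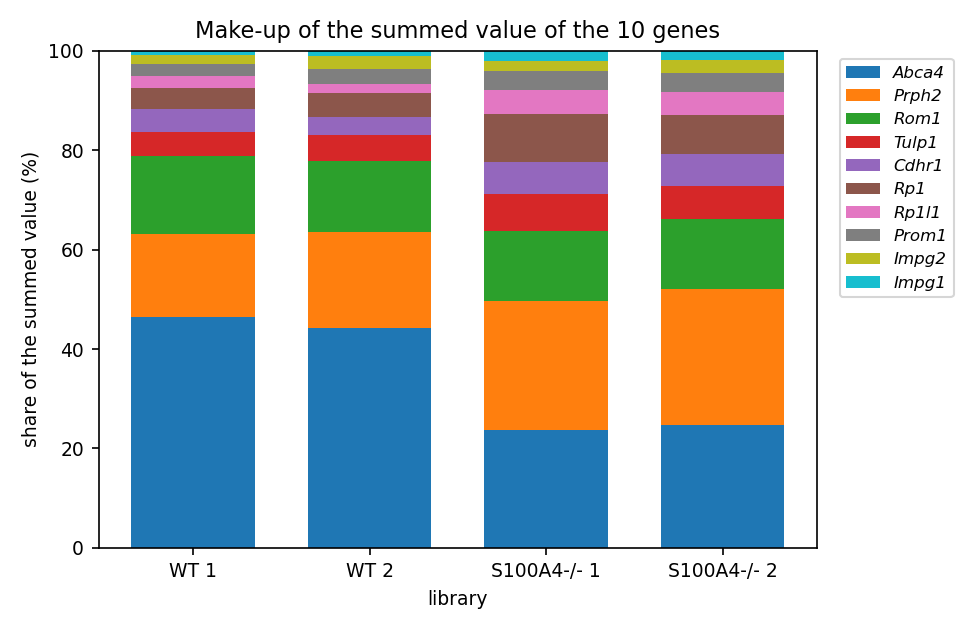
Share of each gene (%) in the summed normalized value of the 10 genes, not corrected for gene length, as stacked bars, 1 for each library. *Abca4* takes 44.2% to 46.4% in WT and 23.6% to 24.8% in S100A4-/- libraries, while *Prph2* takes the largest share in both S100A4-/- libraries.

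*Impg1* and *Impg2* encode proteoglycans of the interphotoreceptor matrix that bind hyaluronan, and they had the fewest reads of the 10 genes over the 4 libraries together. *Impg1* (ENSMUSG00000032343, chromosome 9, 80313330 to 80465481) had values of 128 and 111 in S100A4-/- and of 15.7 and 20.8 in WT lenses. These WT values rest on 15 and 19 reads. The log2 fold change was 2.66 (SE 0.30 by limma, adjusted p = 1.06e-08 by Benjamini-Hochberg), the highest of the 10 and the least precise, with a 95% interval of 2.06 to 3.26. *Impg2* (ENSMUSG00000035270, chromosome 16, 56204313 to 56273756) had values of 124 and 154 in S100A4-/- and of 38.6 and 55.8 in WT. Its groups did not overlap, and its log2 fold change was 1.55 (SE 0.23 by limma, adjusted p = 6.39e-06 by Benjamini-Hochberg). The call of *Impg2* was lost without the second S100A4-/- library (adjusted p = 0.0848), where a single library stood for that group and was assumed to vary like the WT group. By values not corrected for gene length, *Impg1* was at 1.03 and 0.724 times *Impg2* in S100A4-/- and at 0.405 and 0.373 times in WT libraries.

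**Figure D3:**
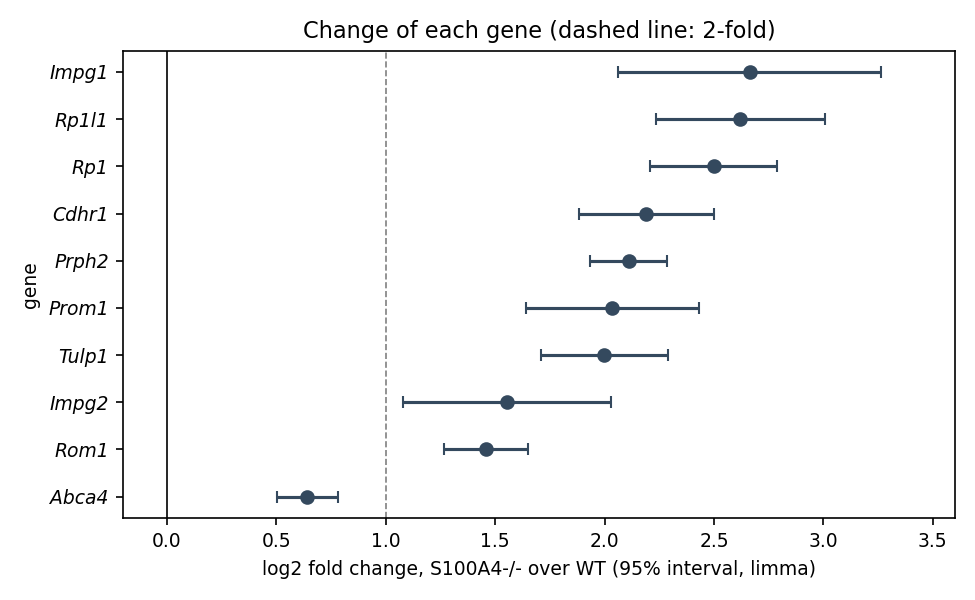
Log2 fold change of each gene in S100A4-/- over WT lenses (x axis, points) with its 95% interval from limma (bars); the dashed line marks 2-fold. Only the interval of *Abca4*, 0.50 to 0.78, lies below the line, and the 9 others lie wholly above it.

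Levels of different genes were compared per kilobase, as the normalized value divided by the length of all annotated exons of the gene in kilobases. By this measure *Rom1* was the highest of the 10 in both groups, at 565 ± 9.89 (SD, n = 2) per kilobase in S100A4-/- and 205 ± 8.56 (SD, n = 2) in WT, followed by *Prph2* at 542 ± 0.778 and 126 ± 17.1 (SD, n = 2 each). Then came *Abca4* (123 and 78.6 per kilobase), *Cdhr1* (90.5 and 19.7) and *Tulp1* (64.7 and 16.1). In both groups these 5 stood in the same order with no overlap between the libraries of neighbours. The order of the other 5 was less certain. In S100A4-/- lenses it was *Rp1* (43.8 per kilobase), *Rp1l1* (38.2), *Impg1* (33.0), *Prom1* (32.3) and *Impg2* (15.0), where *Rp1* and *Rp1l1* overlapped, as did *Impg1* and *Prom1*. In WT lenses it was *Prom1* (7.85), *Rp1* (7.65), *Rp1l1* (6.13), *Impg2* (5.09) and *Impg1* (5.02), and only *Rp1* and *Rp1l1* were neighbours without overlap. Exons of rarely used transcripts also count in these lengths.

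Of 20 relatives of the 10 genes, namely tetraspanin, ABC transporter, tubby-like, doublecortin-family and cadherin-related genes tested, 1 rose past the threshold, beside 3.65% of all genes, and log2 fold changes ran from −0.24 with a median of 0.04. The 1 was *Tub*, the tubby gene, which is also among the outer segment genes of the next list, at 186 and 171 in S100A4-/- and 41.8 and 31.8 in WT lenses (log2 fold change 2.26 by limma, adjusted p = 9.05e-10 by Benjamini-Hochberg). *Abca2*, the most abundant of the relatives, was at 8964 and 8734 in S100A4-/- and 8623 and 8856 in WT. The tetraspanin gene *Cd63*, with the largest p of the relatives, was at 1524 and 1430 against 1531 and 1424.

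Among 29 other genes of the outer segment, its cilium and the surrounding matrix, 12 rose past the threshold, the lowest log2 fold change was −0.28 and the median 0.16. A grouping by role, made after the values were seen, gave 8 of 11 for genes of the discs, their enzymes and cell polarity and 4 of 8 for extracellular genes. The 10 genes put under cilium transport and the cilium gate all changed by less than 2-fold, with a median log2 fold change of −0.01. The kinase gene *Mak* was put in the disc group, but it could also be placed with the cilium genes. It rose past the threshold (log2 fold change 1.76 by limma, adjusted p = 0.00279 by Benjamini-Hochberg), so the counts by role depend on the grouping. *Crb1*, a polarity gene, had the largest change of the 29, from 17.8 and 2.19 in WT to 146 and 142 in S100A4-/- lenses (log2 fold change 4.23 by limma, adjusted p = 6.56e-09 by Benjamini-Hochberg). The second of these WT values is under that of 3 reads, 3.28. *Prcd*, a small disc protein, had the smallest change that passed (log2 fold change 1.19 by limma, adjusted p = 0.012 by Benjamini-Hochberg). *Timp3*, an inhibitor of matrix proteases and the most abundant of the list, was at 9732 and 9556 in S100A4-/- and 8164 and 8476 in WT, and *Hapln1*, which links hyaluronan to proteoglycans, changed by 0.01 on the log2 scale (adjusted p = 0.992 by limma and Benjamini-Hochberg). *Rbp3*, the retinoid-binding protein of the interphotoreceptor matrix, was named after its values were seen. Its values were 2013 and 1970 in S100A4-/- and 396 and 389.8 in WT lenses, which limma put at a log2 fold change of 2.34 (SE 0.08 by limma, adjusted p = 4.28e-24 by Benjamini-Hochberg). Of the cilium genes as grouped here, *Rpgrip1* was the highest at a log2 fold change of 0.36 and *Spata7* the lowest at −0.27. *Mak*, *Rpgrip1* and *Spata7* were named after their values were seen.

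The rod phototransduction genes were set beside the 10 genes, since both groups of proteins work in the outer segment. Of 19 rod genes, which share no gene with the 10, 16 rose past the threshold, with a median log2 fold change of 1.98 against 2.07 for the 10, and the lowest, that of *Gnb1*, was 0.19. *Pdc*, phosducin, had the largest rise (log2 fold change 2.45 by limma, adjusted p = 2.69e-16 by Benjamini-Hochberg), and *Rgs9bp*, an anchor of the G protein regulator RGS9, the smallest that passed (1.11, adjusted p = 4.79e-07 by the same test). The list summed to 16528 and 16173 in S100A4-/- and 7919 and 8139 in WT libraries. Its most abundant gene was *Gnb1*, a G protein beta subunit used in many cell types, at 5899 and 5874 against 5044 and 5263. The summed value of the 10 genes was 0.377 and 0.369 of that of the rod list in S100A4-/- and 0.258 and 0.262 in WT libraries. The mean ratio in S100A4-/- was thus 1.43 times that in WT, but its direction depended on *Gnb1*. With *Gnb1* left out of the rod list the ratio was 0.587 and 0.580 in S100A4-/- and 0.711 and 0.742 in WT libraries, or 0.803 times that in WT. It was 1.99 times that in WT with *Abca4* alone left out and 1.11 times with both left out. These omissions were chosen after the values were seen, and no order between the 10 genes and the rod genes is read from the ratio.

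**Figure D4:**
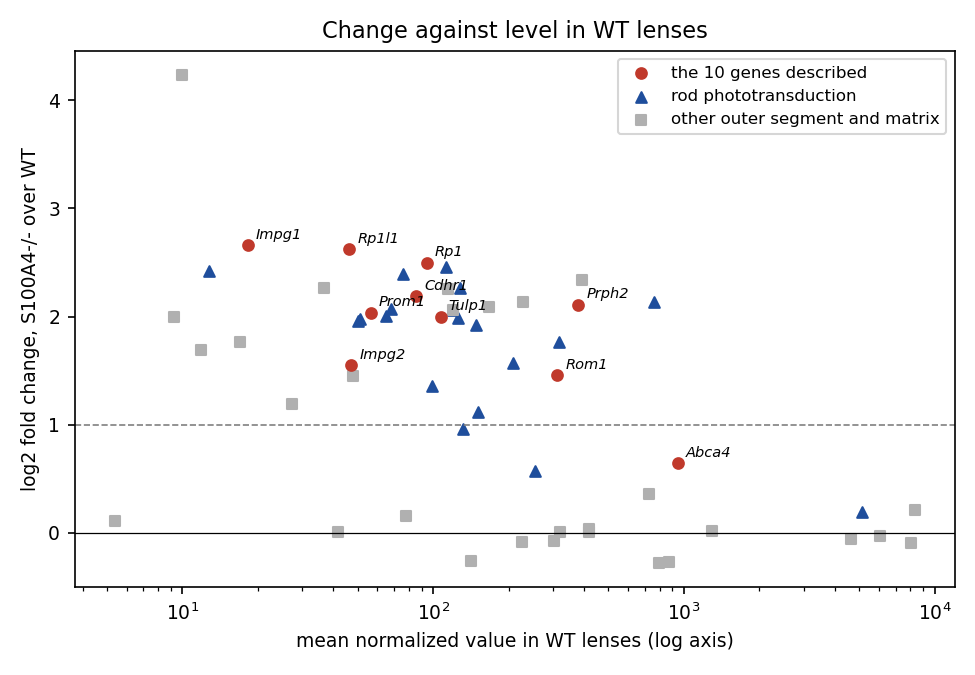
Log2 fold change in S100A4-/- over WT (y axis) against the mean normalized value in WT lenses (x axis, log) for the 10 genes (red circles, named), the rod phototransduction list (blue triangles) and the other outer segment and matrix genes (grey squares); *Slc24a1* is in both of the last 2 lists. *Abca4* lies at a WT value of 945 and a log2 fold change of 0.64, apart from the 9 others.

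Of 12 cone genes, 5 rose past the threshold, with a median log2 fold change of 1.11 and sums of 1327 and 1242 in S100A4-/- and 1027 and 1063 in WT. The most abundant was *Slc24a2*, an ion exchanger, at 873 and 768 against 825 and 844. The short-wave cone opsin gene *Opn1sw* was at 75.4 and 57.8 against 33.4 and 21.9 (log2 fold change 1.25 by limma, adjusted p = 0.00795 by Benjamini-Hochberg), and *Cngb3*, a subunit of the cone channel, at 12.0 and 8.11 against 11.5 and 6.57. Of 10 photoreceptor transcription factor genes 7 rose, with a median log2 fold change of 1.83. *Nrl*, the rod fate factor, was at 601 and 516 against 127 and 140, and *Rxrg*, the most abundant, at 1068 and 1152 against 1132 and 1166.

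Many markers of other cells of the eye moved with the 10 genes. Their part in the changes described above was not tested. Of 10 bipolar cell genes 2 rose (median log2 fold change 0.73), and the list summed to 4401 and 4139 in S100A4-/- and 3638 and 3459.9 in WT, led by *Prkca* at 1444 and 1397 against 1393 and 1374. Of 13 amacrine and ganglion cell genes 8 rose (median 1.63), with sums of 3108 and 3099 against 2077 and 2167, led by *Tfap2a* at 1544 and 1545 against 1510 and 1537. In this list *Gad2*, the GABA-producing enzyme of inhibitory neurons, had no read in the first WT library and *Slc17a6*, a glutamate transporter, none in the second. Of 10 Müller glia genes 5 rose (median 1.00), with sums of 175679 and 186574 against 174096 and 175783, with *Vim* the highest on average at 78205 and 87448 against 88420 and 89285. In the first S100A4-/- library *Dkk3* was slightly higher than *Vim*, at 78434 (78205 for *Vim*). *Rlbp1*, the retinaldehyde-binding protein of Müller glia, had far fewer reads than these and the smallest change of this list that passed. It was at 267 and 219 against 84.6 and 97.4 (log2 fold change 1.40 by limma, adjusted p = 7.62e-08 by Benjamini-Hochberg). More abundant genes also passed, namely *Apoe* at 9011 and 8824 against 2170 and 2690 and *Glul* at 5387 and 5421 against 1779 and 1923. Both were named after their values were seen, and 5 of the 10 genes did not pass.

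Markers of cells outside the neural retina were also higher in many cases. Of 10 pigment epithelium and melanin genes 7 rose (median 1.28), with sums of 2029 and 2038 in S100A4-/- and 633 and 761 in WT, with *Ttr*, transthyretin, the highest on average over the 4 libraries at 449 and 408 against 211 and 253. *Dct*, an enzyme of melanin synthesis, was the highest in the S100A4-/- libraries and had the largest rise of the list, at 581 and 582 against 31.3 and 44.9 (log2 fold change 3.92 by limma, adjusted p = 7.41e-20 by Benjamini-Hochberg). Of 9 ciliary epithelium genes 6 rose (median 2.17), with sums of 8197 and 8030 against 5707 and 5721, led by *Ptgds*, a prostaglandin synthase, at 5989 and 5951 against 4702 and 4648. Of 6 macrophage genes 4 rose (median 1.39), with sums of 293 and 247 against 103 and 86.5, led by *Csf1r* at 93.3 and 69.9 against 33.4 and 35.0. Of 9 blood and endothelial genes 2 rose (median 0.87), with sums of 452 and 425 against 256 and 212, with the globin gene *Hbb-bs* the highest on average at 158 and 174 against 104 and 55.8. In the second WT library the endothelial receptor gene *Tek*, named after its values were seen, was higher, at 59.1. The lowest log2 fold change in these 7 lists was −0.29, in the bipolar list, and apart from *Gad2* and *Slc17a6* no listed gene in the table was at 0 in any library. *Vsx1*, *Chat*, *Pou4f2*, *Best1*, *Slc45a2*, *Aif1* and *Ptprc* of these lists were not analysed here, and *Aqp4* is in both the Müller glia and the ciliary list. Lens genes moved little, with log2 fold changes of −0.12 to 0.05 for 12 lens fiber genes (median −0.06) and of −0.16 to 0.15 for 6 lens epithelium genes (median −0.04).

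**Figure D5:**
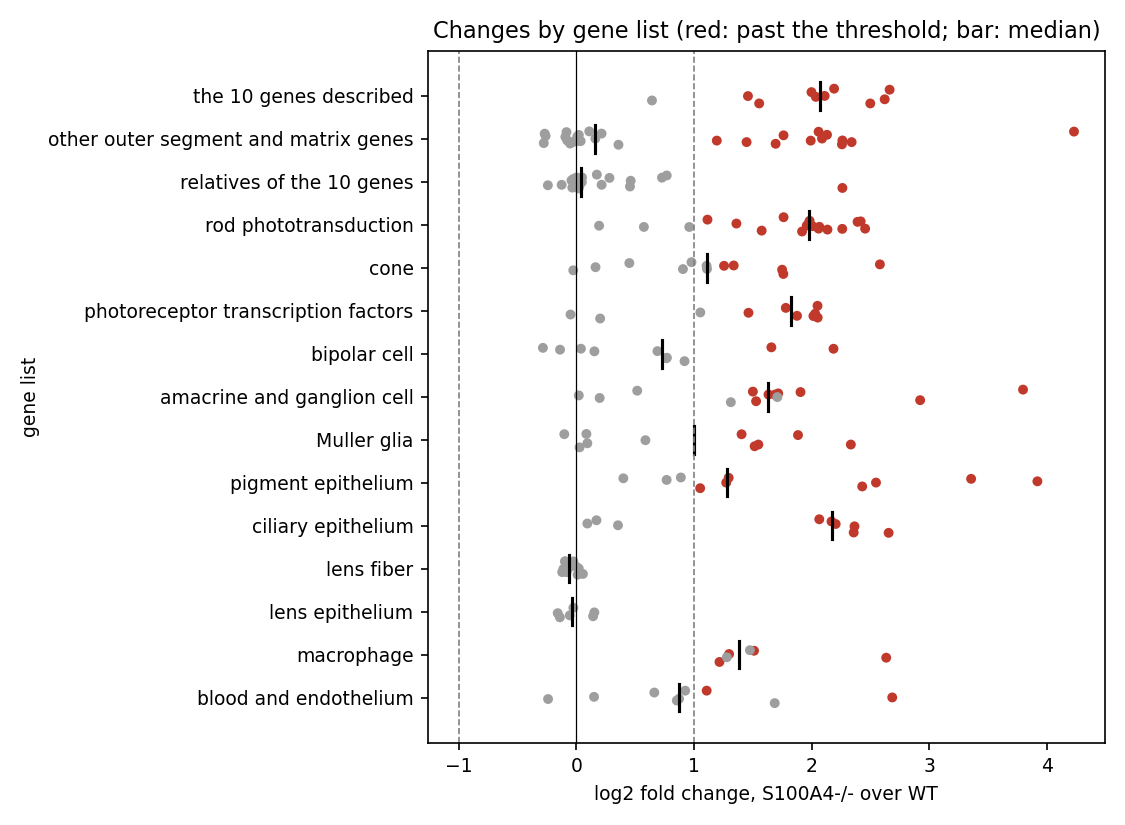
Log2 fold change in S100A4-/- over WT (x axis) of every gene tested in each list (rows); red points passed the threshold, grey points did not, black bars are medians and dashed lines mark 2-fold. The medians are 2.07 for the 10 genes and 1.98 for rod phototransduction, and −0.06 for lens fiber genes.

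The 5 genes whose pattern over the 4 libraries was nearest to the mean pattern of the 10, by Euclidean distance between log2(value + 1) profiles centred on each gene's mean, were *Slc13a4*, *Ifit3*, *Cldn2*, *Igfbp2* and *Prelp*. Their distances were 0.0940 to 0.116, where the median of all genes tested was 2.00. Of the 10 genes themselves *Tulp1* was the nearest at 0.118 and *Abca4* the farthest at 1.34. *Slc13a4*, a sulfate transporter, was at 558 and 558 in S100A4-/- and 129 and 153 in WT lenses, and *Prelp*, a matrix proteoglycan, at 926 and 919 against 214 and 261. With 4 libraries in 2 groups, such a likeness rests mainly on the size of the difference between the groups.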

How the data were processed

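The data are mRNA-seq libraries (stranded kit, 1 read per fragment) of lenses of 1-month-old mice, 2 from S100A4-/- and 2 from WT, grouped by the sample labels. Trim Galore, STAR (GRCm38v73; mm10 in the submitters' processing notes), HTSeq and DESeq2 were the authors' tools for trimming, mapping, counting and normalization, in that order, with versions not given in the sources used here. Genes under 10 reads in all libraries were dropped by the authors. The deposited signal is thus a read count divided by a factor of its library (a DESeq2 size factor), with no correction for gene length.

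Dividing by the value of 1 read gave whole numbers (within 0.01) for 100% of values in all libraries, and these were used as recovered reads. The floor of 3 reads was a value of 2.57 and 3.04 in S100A4-/- and 3.13 and 3.28 in WT, and covers counting error only. No column of per-sample values was without a sample. Of 14924 identifiers, 14782 had a symbol, coordinates and exon length in GENCODE M21 (GRCm38).

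Groups were compared with limma 3.58.1 (lmFit, eBayes with a trend) on log2(value + 1) over 14780 genes (those reaching 10 in any library). The study's own test, DESeq2 (1.42.0), and edgeR (4.0.16) quasi-likelihood were alternatives, run in R 4.3.3 on recovered reads, since the deposited values are not counts. The script was tested on simulated data. Other alternatives were the pseudocount, filter, scaling, variance trend, replicate block, fold threshold and each library left out in turn. Figures used matplotlib 3.10.9.

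The 10 genes and all lists were chosen with earlier results of these data known. Named genes are the 10, *S100a4*, the 5 nearest in pattern and, in each list, the most abundant gene, those past the threshold with the largest and smallest change, that with the largest p, and any with no read in a library; not all of these are printed, and others are said to be chosen later. Some genes were left out of the lists and are not reported here. Protein sequences were not used here.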

Additional observations from a re-analysis of the deposited data

How the results depend on the processing

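The number of the 10 genes past the threshold was 9 under pseudocounts of 0.5 and 5, with no filter, with a minimum mean value of 50, with TMM factors or equal totals, after quantile normalization, with DESeq2 and with edgeR. It was 7 without the variance trend and 10 with no fold threshold. Of 150 gene-by-alternative fold changes none reversed, 147 kept their side of the threshold and 3 lost it (*Prom1* and *Impg2* without the trend, *Impg2* without the second S100A4-/- library). Across all genes, those higher and lower, 539 and 11, came to 281 and 6 with a minimum mean of 50, 377 and 23 with quantile normalization, 174 and 7 without the trend, 421 and 6 with DESeq2 and 831 and 197 with no fold threshold. The stricter mean filter tests fewer genes, and dropping the fold threshold adds genes by definition. For the others the cause was not tested. Each library left out in turn, with the lone library assumed to vary like the other group, gave 168 to 546 genes higher and 4 to 13 lower, with 168 and 4 without the first and 210 and 6 without the second S100A4-/- library. It gave 8 to 9 of the 10 genes past the threshold, a median log2 fold change of 1.95 (without the first WT library) to 2.16 (without the second) and a ratio of the 10 genes to the rod list in S100A4-/- of 1.42 to 1.45 times that in WT. That ratio turned with the genes summed, to 0.803 times that in WT without *Gnb1*, and was 1.99 times without *Abca4* and 1.11 times without both, all chosen after seeing the data. With the replicate number as a block, 576 genes were higher and 15 lower and 9 of the 10 passed. The labels do not say whether equal replicate numbers pair the libraries. The correlation of the replicate differences between the groups was 0.0119 over 14780 genes. It shows no shift shared by equal numbers, but it cannot tell whether the pools were matched. In WT lenses *Impg1* rests on 15 and 19 reads.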
